A study of Mus musculus with 6 samples.

Results

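The transcripts of the mouse mitochondrial genome were examined in sorted nephron progenitor cells of the fetal kidney. They were taken by position, as every row of the deposited gene table placed on the mitochondrial chromosome (MT). There were 37 such rows among 52386 genes listed, namely 13 mRNAs, 2 rRNAs and 22 tRNAs, and 13 of them carried a read count, against 45659 counted genes in the table. The 13 counted rows were the 13 mRNAs. The rRNAs mt-Rnr1 and mt-Rnr2 and all 22 tRNAs were marked as having no count, as were all rows typed rRNA (355), snoRNA (1537), miRNA (2254) and snRNA (1390), so the comparison by RNA class could be made for mRNAs only. By strand, 12 mRNAs lie on the plus strand of the reference and 1, mt-Nd6, on the minus strand, together with 8 of the uncounted tRNAs.

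The cells came from embryos at E18.5 of CD-1 females mated with males that carried a Six2 Cre transgene (Six2 Cre tg/+), a driver active in nephron progenitors, and were sorted as GFP-positive from kidneys digested with collagenase and dispase. Dams ate a control diet or were food-restricted throughout pregnancy, with 3 libraries per diet and the same strain and transgene in both groups. The restricted diet is given as 30% of daily intake in the sample labels and as 70% in the series text, and which of them applied could not be settled. Libraries were stranded total RNA, with 6515127 to 16763479 counted reads each. Libraries are not linked to litters in the labels, and the p-values below therefore measure only the spread between these libraries. Food-restricted replicate 1 was the shallowest library and stood apart from the other 5 on the second principal component of all genes, at -15.2 against -4.17 to 6.41. The libraries also differed by diet in the sex-linked genes Xist, at 16741 to 18395 normalized counts in controls and 25999 to 27067 after food restriction, and Ddx3y, at 691 to 807 and 320.0 to 361. These genes were chosen after their values were seen, and the part of embryo sex in the values below was not tested.

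Mitochondrial DNA is transcribed from both strands into long precursors that are cut at the tRNAs between the genes. The heavy-strand transcript yields both rRNAs and all mRNAs but mt-Nd6, which comes from the light-strand transcript. The mRNAs encode subunits of respiratory complex I (mt-Nd1 to mt-Nd6 and mt-Nd4l), complex III (mt-Cytb), complex IV (mt-Co1 to mt-Co3) and the ATP synthase (mt-Atp6 and mt-Atp8). The proteins of mitochondrial gene expression are made from nuclear genes. Stretches of mitochondrial DNA have also been copied into nuclear chromosomes. Nephron progenitors are known for a glycolytic metabolism that shifts towards mitochondrial respiration as they differentiate, and the proximal tubule is rich in mitochondria.

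The counted mRNAs differed widely in how much of their sequence also occurs in nuclear genes, and the sequences are shown first because the read counts followed this division. The transcripts were taken from the GENCODE M21 annotation (GRCm38), whose coordinates matched the deposited ones for 37 of 37 mitochondrial rows. A set of 7 annotated pseudogenes on the minus strand of chromosome 1 (chr1:24611535-24616197) copies the stretch from mt-Co1 to mt-Nd4. The first 60 bases of mt-Co2 (chrMT:7013-7072) are identical to those of its copy Gm28661 (chr1:24615506-24615565). The first 60 bases of mt-Nd3 (chrMT:9459-9518) and of its copy Gm28438 (chr1:24613060-24613119) differ at T3C, the only difference in 345 aligned bases. The copy of mt-Co1, Gm29216, begins within the gene, at base 1054, and 60 bases from there (chrMT:6381-6440 and chr1:24616138-24616197) carry the differences T1056A, C1057T, A1059G, A1060G, C1062A and A1066T. Positions count from 1 at the first base of the mitochondrial gene, the mitochondrial base stands first, and capitals mark the bases that differ.
mt-Co2: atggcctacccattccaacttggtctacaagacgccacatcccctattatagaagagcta
Gm28661: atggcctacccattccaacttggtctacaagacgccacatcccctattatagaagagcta
mt-Nd3: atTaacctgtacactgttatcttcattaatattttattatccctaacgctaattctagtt
Gm28438: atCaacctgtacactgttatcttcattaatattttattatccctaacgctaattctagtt
mt-Co1: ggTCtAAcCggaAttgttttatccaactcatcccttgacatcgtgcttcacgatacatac
Gm29216: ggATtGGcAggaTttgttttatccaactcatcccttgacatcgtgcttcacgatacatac

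Every run of 50 consecutive bases (a window) in each mRNA was looked up in 141730 annotated transcripts, on both strands. All windows of mt-Co2 (100%) were found in a nuclear transcript, as were 99.9% of those of mt-Co3, 99.5% of mt-Atp6, 98.8% of mt-Nd4l and 98.0% of mt-Nd3. The share was 62.2% for mt-Nd4 and 51.1% for mt-Co1, 8.19% for mt-Nd2 and 7.61% for mt-Nd5. No window of mt-Nd1, mt-Atp8, mt-Nd6 or mt-Cytb was found in a nuclear transcript (0%). The copies of mt-Co2, mt-Co3, mt-Atp6, mt-Nd4l and mt-Nd4 were identical to the gene over all aligned bases (681, 783, 678, 294 and 876 bases). Only annotated transcripts were searched, so nuclear sequence between them, such as that between the copies of mt-Co2 and mt-Atp6 where mt-Atp8 would lie, was not assessed.

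The 5 mRNAs that share over 95% of their windows were the 5 with the fewest reads. Their raw reads per library were 6 to 34 for mt-Co2, 38 to 74 for mt-Co3, 11 to 39 for mt-Nd3, 1 to 12 for mt-Nd4l and up to 311 for mt-Atp6. The other 8 mRNAs had 935 to 53614 reads per library, the lowest being mt-Nd6 and the highest mt-Nd5, both in food-restricted libraries. Per kb of gene length, the control means were 21.1 to 334 normalized counts for the 5 and 3708 to 33710 for the 8. A normalized count is the read count divided by the authors' size factor of its library. The sources used here do not say how reads matching several places were treated, and the part of the nuclear copies in these low counts was not tested.

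**Figure D1:**
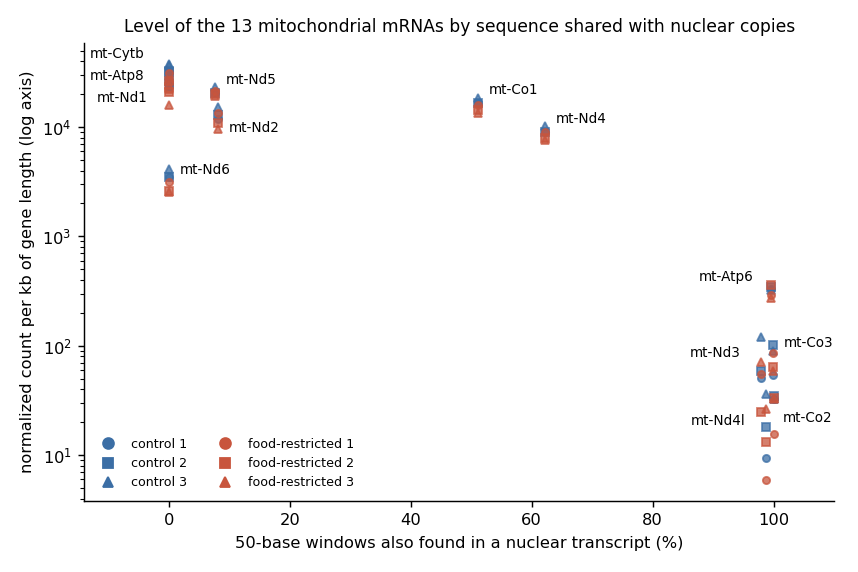
Normalized count per kb of gene length (log axis) of each of the 13 mitochondrial mRNAs against the percent of its 50-base windows also found in an annotated nuclear transcript. Each point is 1 library, in blue for control and red for food-restricted. The 5 mRNAs at 98.0% to 100% have control means of 21.1 to 334 per kb, and the 8 at 62.2% or less have control means of 3708 to 33710.

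Reads in the 7 copies of the chromosome 1 set were few. They summed to 111 over all 6 libraries, from 4 reads for Gm29216 to 45 for Gm28438, against 1379 reads for mt-Atp6 and 136 for mt-Co2. Per library the copies had 15, 32 and 27 reads in controls and 7, 13 and 17 after food restriction, or 1.22, 2.94 and 2.53 CPM (reads scaled to the same library total) against 1.07, 0.916 and 1.01 CPM. Per counted read, every food-restricted library lay below every control, but the nearest were 1.07 and 1.22 CPM, on 7 and 15 reads. By normalized count, 10.2% of all genes tested were lower with no overlap. Only 3 of these 7 copies had enough reads for a normalized count, Gm28438 (adjusted p = 0.223), Gm10925 (adjusted p = 0.836) and Gm10222 (adjusted p = 0.903, limma). Limma called none of them, with 1 at an unadjusted p under 0.05 and 0 in the authors' deposited table. The window search also found pseudogenes outside this set. Gm13340 on chromosome 2 shares 411 windows with mt-Co1 and had 46, 38 and 55 reads in controls and 33, 53 and 61 after food restriction. Gm13341, also on chromosome 2, shares 224 windows with mt-Co2 and had 10, 16 and 18 reads against 11, 14 and 25.

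The 8 mRNAs that share under 95% of their windows are called distinct below, though mt-Nd4 and mt-Co1 share 62.2% and 51.1%. Among these 8, mt-Cytb had the highest control level per kb (33710 ± 2864, SD, n = 3), followed by mt-Atp8 (31321 ± 7130), mt-Nd1 (26883 ± 2095) and mt-Nd5 (21324 ± 1509). Next came mt-Co1 (17202 ± 1173), mt-Nd2 (13288 ± 1690), mt-Nd4 (9428 ± 719) and mt-Nd6 (3708 ± 365). Control ranges of neighbours in this order overlapped for mt-Cytb and mt-Atp8 and for mt-Atp8 and mt-Nd1, and were separate from mt-Nd1 downwards. The order rests on full gene length. Per 1000 unshared 50-base windows instead, mt-Atp8 stood highest at 41223, followed by mt-Co1 at 36358, mt-Cytb at 35219 and mt-Nd1 at 28334. Then came mt-Nd4 at 25881, mt-Nd5 at 23717 and mt-Nd2 at 15190, and mt-Nd6 was the lowest on this scale as well, at 4094. This order depended on the window size. With 100-base windows mt-Co1 stood at 26578, below mt-Cytb at 36904 and mt-Nd1 at 29985. mt-Atp8 has no shared window and only 155 windows of 50 bases in 204 bases, so its rise comes from its short length. The base content of mt-Nd6 is that of the opposite strand, with 28.1% G and 5.97% C. The 12 plus-strand mRNAs hold 5.88% to 16.1% G and 22.1% to 30.0% C.

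Some neighbouring genes overlap, so a read in the overlap could come from either, and how such reads were counted is not given. mt-Atp8 (chrMT:7766-7969, 204 bases) is shown whole because it is the shortest gene and its last 43 bases, in capitals, are also the first of mt-Atp6. The ends of mt-Nd5 (chrMT:13506-13565, plus strand) and mt-Nd6 (chrMT:13552-13611, minus strand) share 14 bases on opposite strands, also in capitals. The kit marks strand, but the sources used here do not say whether HTSeq used it, so reads of mt-Nd6 cannot be told apart from heavy-strand reads across the same bases.
mt-Atp8: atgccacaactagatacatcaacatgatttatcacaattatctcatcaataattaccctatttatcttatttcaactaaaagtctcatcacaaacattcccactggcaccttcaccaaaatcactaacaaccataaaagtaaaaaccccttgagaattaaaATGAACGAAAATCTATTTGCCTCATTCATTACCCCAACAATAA
mt-Nd5 end: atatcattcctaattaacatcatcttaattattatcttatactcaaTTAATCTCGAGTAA
mt-Nd6 end: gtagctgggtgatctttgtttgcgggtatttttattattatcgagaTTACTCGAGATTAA

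Diet was compared for the 13 mRNAs in a fit across all 25157 genes with normalized counts (limma with a mean-variance trend on log2 of the normalized count plus 1, food-restricted over control). A gene was called at a p below 0.05 after Benjamini-Hochberg adjustment over all of them. Of the 13 mRNAs, 7 were called lower and 0 higher, where 2.50% of all genes tested were called lower and 2.24% higher. The 7 were mt-Cytb, mt-Nd6, mt-Co1, mt-Nd4, mt-Atp8, mt-Nd1 and mt-Nd2. All 13 fold changes were below 0, with a median of -0.24 on the log2 scale against -0.003 for all genes tested. The 3 other scalings tried kept these signs, but they shift all genes by nearly the same small amount, so this adds little. No overlap between diets was seen for 3 of the 13, mt-Nd6, mt-Cytb and mt-Co1, where 10.2% of all genes were lower with no overlap. The other 4 called mRNAs overlapped between diets. In bulk libraries, fewer cells of a type and less RNA per cell cannot be told apart.

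The count of 7 depends on how the spread is estimated. Limma draws each gene's variance towards that of genes of like level, and the 8 distinct mRNAs had SDs between libraries 2.01 to 3.64 times the SD so moderated. Only 98 of 25157 genes (0.390%) reached that ratio of 2.01, and the median gene stood at 0.927. With a robust prior, which draws genes of outlying spread less towards the others, 1 of 13 was called, mt-Nd6 (adjusted p = 4.04e-07). In that fit 2.77% of all genes were called lower. mt-Nd6 had the lowest ratio of the 8 (2.01) and did not keep its own variance there. Its adjusted p was smaller than in the main fit (2.79e-06, limma), and it was 0.339 with its own variance alone. In the authors' deposited table, made with DESeq2, 1 of 13 had an adjusted p under 0.05, again mt-Nd6 (0.0400), where 1.75% of all genes were lower at that threshold. With each gene's own variance alone, 0 of 13 passed and 1, mt-Nd6, had an unadjusted p under 0.05, but that fit called only 6 genes lower in the whole table. mt-Nd6 was thus called by the main fit, by the robust fit and in the authors' table, and the other 6 by the main fit and by neither of the others.

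**Figure D2:**
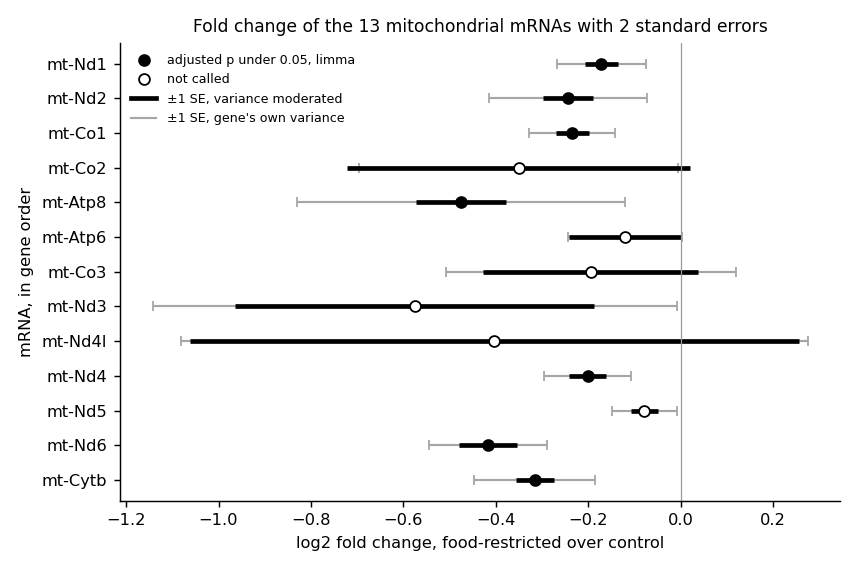
Log2 fold change (food-restricted over control) of the 13 mitochondrial mRNAs in gene order, with 3 libraries per diet. Filled points passed an adjusted p of 0.05 in limma, black bars are ±1 SE with the moderated variance and grey bars ±1 SE with the gene's own variance. The 7 filled points lie between -0.17 and -0.47. For the 8 mRNAs with 62.2% of their windows shared or less, grey bars are 2.01 to 3.64 times as long as black ones.

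mt-Nd6, the complex I subunit encoded on the light strand, had 1829, 1802 and 2142 normalized counts in controls and 1646, 1362 and 1323 after food restriction. Every food-restricted library lay below every control. Its mean was 1924 ± 189 in controls and 1443 ± 177 after food restriction (SD, n = 3), a log2 fold change of -0.42 with a standard error of 0.06 (limma, adjusted p = 2.79e-06). Leaving out any 1 library kept it called, with adjusted p-values from 3.07e-08 to 0.00213.

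The other subunits of complex I were mt-Nd1, mt-Nd2, mt-Nd4 and mt-Nd5, which are among the 8 distinct mRNAs, and the nearly fully shared mt-Nd3 and mt-Nd4l. mt-Nd1, which helps to form the quinone channel, had 24071, 25154 and 27957 normalized counts in controls and 25050, 22305 and 21191 after food restriction. Food-restricted replicate 1 lay among the controls and the other 2 below them, and the log2 fold change was -0.17 ± 0.04 (SE, limma, adjusted p = 0.000898). mt-Nd2, a subunit of the membrane arm, had 12311, 13338 and 15729 against 13811, 11257 and 10006, again with food-restricted replicate 1 among the controls (log2 fold change -0.24, adjusted p = 0.00149, limma). That fold change was -0.15 without control replicate 3, -0.14 without food-restricted replicate 3 and -0.37 without food-restricted replicate 1, and that of mt-Nd1 was -0.11 without control replicate 3. mt-Nd4, also of the membrane arm, had 12529, 12319 and 14130 against 12387, 10984 and 10541, with the same overlap (log2 fold change -0.20, adjusted p = 0.0003, limma). mt-Nd5, the longest of the mRNAs and the other large subunit of that arm, was not called. It had 36944, 37698 and 42045 normalized counts against 38684, 36582 and 35155, a log2 fold change of -0.08 (adjusted p = 0.140, limma), and it was called in 2 of the 18 alternatives (8 of 13 called in each).

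mt-Cytb, the cytochrome b of complex III, had 36355, 37010 and 42329 normalized counts in controls and 35711, 30111 and 27478 after food restriction. The diets did not overlap, though food-restricted replicate 1 lay close under the lowest control. The log2 fold change was -0.32 with a standard error of 0.04 (limma, adjusted p = 6.73e-08), and the adjusted p with the robust prior was 0.366.

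mt-Co1, the catalytic subunit of complex IV, had 25699, 25372 and 28662 normalized counts in controls and 24819, 22271 and 20771 after food restriction, with no overlap. Its log2 fold change was -0.23 with a standard error of 0.04 (limma, adjusted p = 2.84e-06; 0.346 with the robust prior). The subunits mt-Co2, which carries the CuA centre, and mt-Co3 are nearly or fully shared with their copies, and neither was called. mt-Co2 had 22.1, 23.6 and 22.5 normalized counts against 10.6, 22.9 and 22.3, where 6 reads in the shallowest library set the low value.

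mt-Atp8, the small ATP synthase subunit, varied most among the 8. It had 4870, 6531 and 7768 normalized counts in controls and 6593, 4278 and 3262 after food restriction. The diets overlapped, since food-restricted replicate 1 exceeded 2 controls. The log2 fold change was -0.47 with a standard error of 0.10 (limma, adjusted p = 0.000649; 0.635 with the robust prior). It was -0.24 without food-restricted replicate 3 (limma, adjusted p = 0.268) and -0.75 without food-restricted replicate 1. mt-Atp6, the proton-channel subunit, had 225, 237 and 220 normalized counts against 197, 246 and 188, and was not called (log2 fold change -0.12, adjusted p = 0.709, limma).

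Of the 5 nearly fully shared mRNAs limma called 0, with 0 at an unadjusted p under 0.05 and 0 in the authors' deposited table. Their log2 fold changes ran from -0.58 for mt-Nd3 to -0.12 for mt-Atp6, with a median of -0.35, on 1 to 311 reads per library. The standard errors ran from 0.12 for mt-Atp6 to 0.66 for mt-Nd4l. mt-Nd3 had 17.5, 20.3 and 41.8 normalized counts against 19.4, 8.69 and 24.9, and mt-Nd4l had 2.77, 5.35 and 10.7 against 1.76, 3.95 and 7.87. The diets overlapped for both.

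The 8 distinct mRNAs ran together across libraries. Their median distance from the control mean, on the log2 scale, was -0.08, -0.05 and 0.13 in control replicates 1 to 3 and -0.05, -0.27 and -0.40 in food-restricted replicates 1 to 3. All 8 lay above the control mean in control replicate 3, and all 8 lay below it in control replicate 1 and in food-restricted replicates 2 and 3. Without control replicate 3, or without food-restricted replicate 3, 3 of the 13 were called (mt-Nd6, mt-Cytb and mt-Co1). Without food-restricted replicate 1, 8 were called.

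**Figure D3:**
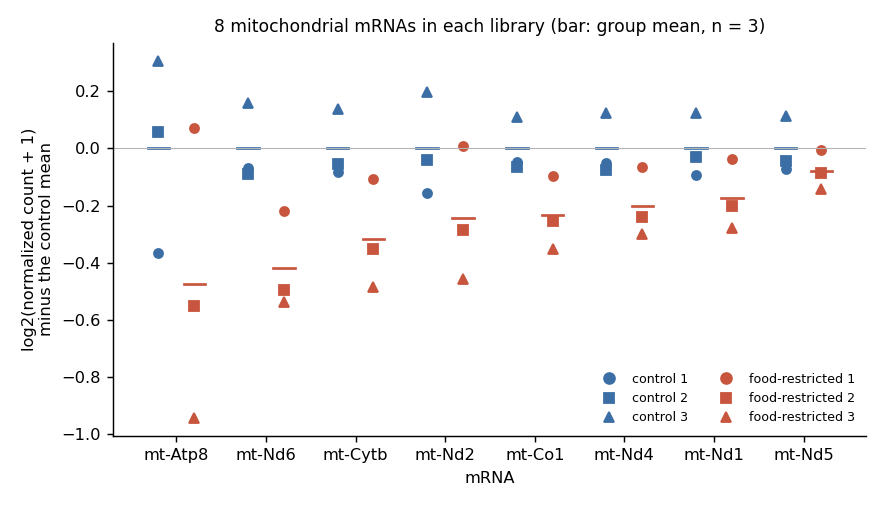
Log2(normalized count + 1) of the 8 mRNAs with 62.2% of their windows shared or less, as the distance from the control mean in each library, ordered by fold change. Blue points are controls, red points food-restricted libraries, and bars are group means (n = 3). Control replicate 3 is above the control mean for all 8, and food-restricted replicate 1 lies closer to the controls than replicates 2 and 3.

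The summed share of the mitochondrial mRNAs followed the same libraries. They took 1.36%, 1.37% and 1.58% of counted reads in controls and 1.39%, 1.24% and 1.18% after food restriction. The ranges overlapped, and the means of 1.44% ± 0.124 and 1.27% ± 0.104 (SD, n = 3) gave an exact two-sided permutation p of 0.3, where 3 against 3 libraries cannot go below 0.1. Gm42418, a gene that overlaps the ribosomal RNA repeat, took 6.59%, 7.87% and 7.37% in controls and 7.42%, 5.27% and 4.54% after food restriction. It was lowest in food-restricted replicates 2 and 3 and within the control range in replicate 1, and its relation to the mitochondrial share was not tested. With its reads taken out of the total, the mitochondrial shares were 1.46%, 1.49% and 1.71% against 1.50%, 1.31% and 1.24%, with the same permutation p of 0.3 (exact).

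Some markers of other kidney cells differed between the diets as well, beside the 2.50% of all genes called lower and the 2.24% called higher. Of 15 proximal tubule markers, 13 were called lower, 15 of 15 had a fold change below 0, and none was at 0 in any library. Their summed level was 537 to 568 CPM in controls and 308 to 321 after food restriction. Per library it was 308, 321 and 319 CPM in food-restricted replicates 1 to 3, beside mitochondrial mRNA shares of 1.39%, 1.24% and 1.18%. Of 6 macrophage markers 4 were called higher, at summed levels of 19.3 to 20.9 CPM and 32.3 to 37.8 CPM, and of 6 stroma markers 4 were called higher, at 172 to 179 CPM and 208 to 247 CPM. Of 10 nephron progenitor markers 2 were called lower, at summed levels of 3048 to 3113 CPM and 2889 to 3096 CPM. Of 5 podocyte markers 1 was called lower, at a sum of 22.0 to 24.5 CPM in controls that overlapped between diets, and of 5 ureteric markers 1 was called lower, at 22.6 to 23.6 CPM and 14.9 to 20.7 CPM. In the authors' table, 11 proximal tubule, 2 macrophage and 3 stroma markers had an adjusted p under 0.05. The same held there for 2 nephron progenitor, 0 podocyte and 1 ureteric markers. Limma called 0 of 4 tested loop and distal tubule markers, 0 of 5 endothelial and 0 of 6 erythroid markers, with 0 of each at an unadjusted p under 0.05 and 0 in the authors' table. The part of these cell types in the mitochondrial values was not tested.

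**Figure D4:**
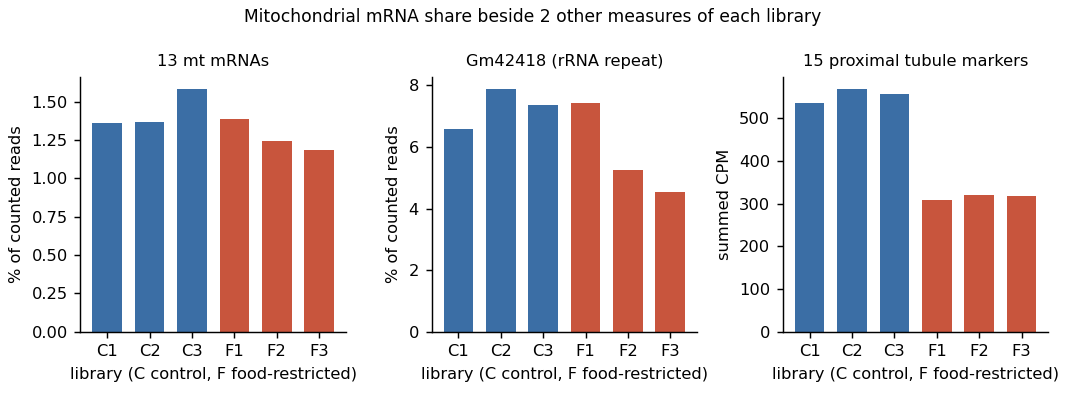
Percent of counted reads in the 13 mitochondrial mRNAs (left), percent in Gm42418 (middle) and summed CPM of 15 proximal tubule markers (right) in each library, control in blue and food-restricted in red. The proximal tubule sum was 537 to 568 in controls and 308 to 321 after food restriction. In food-restricted replicate 1 the left and middle values were 1.39% and 7.42%, within the control ranges.

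Ratios within a library need no size factor. mt-Nd6 made up 1.18%, 1.13% and 1.18% of the mitochondrial mRNA reads in controls and 1.04%, 0.976% and 1.02% after food restriction. Its log2 ratio to the summed normalized counts of the 12 plus-strand mRNAs was -6.39, -6.45 and -6.38 in controls and -6.58, -6.66 and -6.60 after food restriction. The groups did not overlap, the means differed by -0.21, and the exact two-sided permutation p was 0.1, the smallest the design allows. Against only mt-Nd1, mt-Nd2, mt-Nd5 and mt-Cytb, the plus-strand mRNAs that lie outside the chromosome 1 copy, the difference was -0.22 with the same exact p of 0.1. For the ratio to all 12, the difference was -0.23 to -0.18 with any 1 library left out. The ratio was lower in all 3 food-restricted libraries, including replicate 1. The plus-strand sum is made up mostly of a few abundant mRNAs, so the ratio was also taken to each of the 7 plus-strand mRNAs of distinct sequence, a comparison added after the data were seen. It was lower with no overlap for 6 of the 7, by -0.10 for mt-Cytb to -0.34 for mt-Nd5 (exact permutation p = 0.1 each, 0.117 adjusted over the 7). It was not for mt-Atp8, whose log2 ratios of -1.41, -1.86 and -1.86 in controls and -2.00, -1.65 and -1.30 after food restriction overlapped (exact permutation p = 0.9). All 7 ratios hold the same mt-Nd6 counts, and the 7 mRNAs ran together across libraries, so the 6 are not separate results. As the strand setting of HTSeq is unknown, these ratios are of reads assigned to mt-Nd6.

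The share of each mRNA in the mitochondrial mRNA reads was also compared, and no difference passed adjustment. mt-Nd5 took 23.8%, 23.6% and 23.2% of the mitochondrial mRNA reads in controls and 24.3%, 26.2% and 27.0% after food restriction, higher in 3 of 3 libraries with no overlap. The next mRNA on the plus strand, mt-Cytb, took 23.5%, 23.2% and 23.4% against 22.5%, 21.6% and 21.1%, lower in 3 of 3. Of 13 such shares, 3 did not overlap between diets (mt-Nd5, mt-Cytb and mt-Nd6). Each had an exact two-sided permutation p of 0.1, or 0.433 adjusted over the 13. Libraries in random order would separate 3 against 3 with that same probability of 0.1. With any 1 control left out, the exact permutation p was 0.2 for mt-Nd5 and mt-Cytb and 0.1 for mt-Nd6. The shares add to a fixed total, so a higher share of an abundant mRNA lowers the others. The share of mt-Nd1 overlapped between diets, at a mean of 15.6% in controls and 0.437 percentage points more after food restriction (exact permutation p = 0.2).

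**Figure D5:**
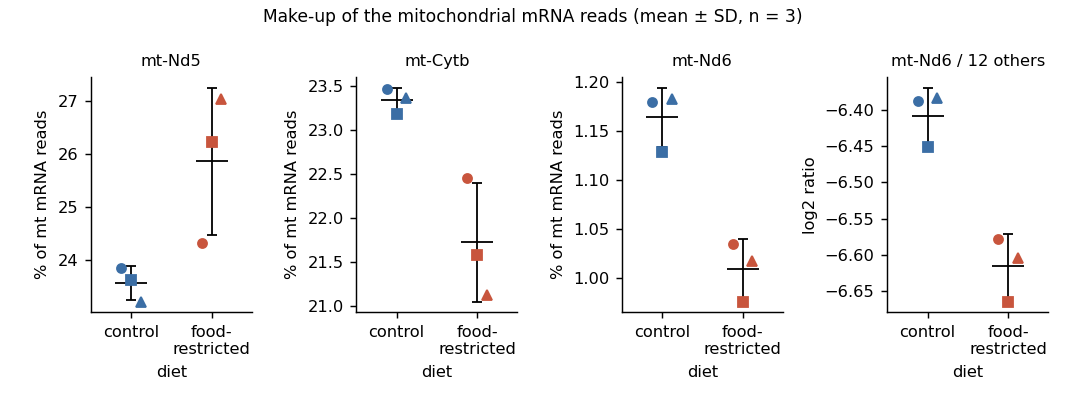
Percent of mitochondrial mRNA reads in mt-Nd5, mt-Cytb and mt-Nd6, and the log2 ratio of mt-Nd6 to the 12 plus-strand mRNAs, in each library, with mean ± SD (n = 3 per diet). The axes do not start at 0. In each panel the control and food-restricted libraries do not overlap, and mt-Nd5 is the higher after food restriction (24.3% to 27.0% against 23.2% to 23.8%).

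The nuclear genes that maintain and express mitochondrial DNA were read from 7 lists, of whose genes 107 were tested. Limma called 3 lower (2.80%) and 5 higher (4.67%), beside 2.50% and 2.24% of all genes, and the median log2 fold change was -0.0004 with 54 of 107 below 0. The 9 transcription genes included 0 called by limma, 3 at an unadjusted p under 0.05 and 0 in the authors' table. Polrmt, the mitochondrial RNA polymerase, had 361, 433 and 429 normalized counts in controls and 333, 427 and 452 after food restriction (log2 fold change -0.02, adjusted p = 0.956, limma), a sign that turned in several alternatives. Tfam, which packages mitochondrial DNA and starts its transcription, had 639, 637 and 664 against 651, 551 and 496 (log2 fold change -0.20, adjusted p = 0.183, limma), with replicate 1 again among the controls.

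Of 14 genes of mitochondrial RNA stability and decay, 1 was called lower and 1 higher. Slirp, the partner that binds Lrpprc and protects mitochondrial mRNAs, had 114, 150 and 138 normalized counts in controls and 84.5, 73.5 and 65.6 after food restriction, with no overlap. Its log2 fold change was -0.84 with a standard error of 0.17 (limma, adjusted p = 0.000656; 0.00025 with the robust prior), and the authors' deposited table gives -0.87 with an adjusted p of 0.00258. Lrpprc itself, a stabiliser of the heavy-strand mRNAs, had 1935, 1860 and 1859 against 1989, 2072 and 2010, higher in every food-restricted library but not called (log2 fold change 0.10, adjusted p = 0.332, limma). Fastk, whose mitochondrial form is needed for the mt-Nd6 mRNA in mouse cells, had 313, 321 and 316 against 363, 409 and 410. It was called higher, at a log2 fold change of 0.31 (limma, adjusted p = 0.0444), but not in the authors' deposited table (adjusted p = 0.0846).

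Of 21 genes of mitochondrial DNA maintenance, 1 was called lower and 1 higher. Polg2, the accessory subunit of the mitochondrial DNA polymerase, had 408, 428 and 351 normalized counts against 481, 556 and 527, with no overlap (log2 fold change 0.40, adjusted p = 0.0025, limma). The catalytic subunit Polg was not called (log2 fold change 0.14, adjusted p = 0.383, limma), nor was the helicase Twnk (log2 fold change -0.05, adjusted p = 0.855, limma). Ssbp1, which coats single-stranded mitochondrial DNA, had 676, 759 and 757 against 650, 617 and 561, called lower by limma at a log2 fold change of -0.26 (adjusted p = 0.0315) and not in the authors' deposited table (adjusted p = 0.0656).

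Of 16 tRNA-modifying genes 2 were called higher and 0 lower. Trmt1, a tRNA guanine methyltransferase, had 657, 662 and 629 normalized counts against 787, 813 and 798 (log2 fold change 0.30, limma, adjusted p = 0.00542). Alkbh1, a dioxygenase that acts on tRNAs, had 894, 918 and 846 against 1007, 1072 and 1014 (log2 fold change 0.22, limma, adjusted p = 0.0388), with an adjusted p of 0.0577 in the authors' deposited table. Both separated the diets in every library. Among 12 RNA-processing genes limma called 0, with 3 at an unadjusted p under 0.05 and 0 in the authors' table, and among 16 rRNA-modifying genes it called 0, with 4 and 0.

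Of 19 regulators of mitochondrial biogenesis 1 was called lower and 1 higher. Gabpa, the DNA-binding subunit of a factor that drives nuclear respiratory genes, had 1660, 1652 and 1661 normalized counts against 1521, 1285 and 1509 (log2 fold change -0.21, limma, adjusted p = 0.0235), and 0.0555 in the authors' deposited table. Ppard, a nuclear receptor of fatty acid metabolism, had 233, 241 and 233 against 298, 318 and 317 (log2 fold change 0.40, limma, adjusted p = 0.0152). The coactivator Ppargc1a was weakly expressed and overlapped between diets, at 68.2, 50.3 and 45.0 against 38.7, 26.9 and 45.9 (log2 fold change -0.55, adjusted p = 0.272, limma). Nrf1, a transcription factor of the same pathway, was not called (log2 fold change 0.06, adjusted p = 0.764, limma). Of the 8 nuclear genes called, Slirp and Trmt1 stayed called with any 1 library left out. Without control replicate 3 the call was lost for the other 6, with adjusted p-values (limma) from 0.0523 for Ppard to 0.194 for Alkbh1, and the fold change of Gabpa was -0.13 without food-restricted replicate 2.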

How the data were processed

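The deposited table holds whole-number read counts per gene and library, the authors' normalized counts (each count divided by the library's size factor, a scaled signal), and the authors' own DESeq2 log2 fold changes, test scores and p-values. The authors' tools, from the submitters' processing notes, include DESeq2 1.22.1, HTSeq 0.6.0 and TopHat2 2.1.1 with build GRCm38, and the sources used here do not give alignment or counting settings. Size factors, recovered from the 2 columns, ran from 0.568 to 1.53. The 25157 genes with at least 10 reads in all carry a normalized count. Because the read columns also hold a mark for missing values, their unit was recorded as other than counts and no count model was run here. The number of sample columns of unknown origin was 0.

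All 25157 genes were tested two-sided with limma (3.58.1, R 4.3.3) on log2(normalized count + 1), modelled on diet alone, with variances moderated along a mean-variance trend (prior degrees of freedom 59.0). Fold changes are on that scale. Ratios and shares were compared with an exact two-sided permutation test over libraries. Shared sequence was searched with 50-base windows, and windows of 75 and 100 bases were also computed. The sequences come from GENCODE M21. Libraries of the same diet differed by more than counting error, so all 3 were kept as separate replicates, and depth (6515127 to 16763479 reads) limits precision for mRNAs of few reads.

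The members, gene lists and tests were chosen with earlier results of these data known. All mitochondrial rows were named; of each nuclear list, called genes (at most 4 of smallest p) and a set of 9 genes were named; the chromosome 1 copies were named where they had a count. Replicate numbers did not pair libraries. Alternatives were other pseudocounts, filters, scalings, variance models, a replicate block, the authors' results and leaving out each library; the robust prior, the fit without a trend and the fit with each gene's own variance were chosen after seeing the data.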

Additional observations from a re-analysis of the deposited data

How the results depend on the processing

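Direction was stable for the 8 distinct mRNAs. The count of 7 mRNAs called lower was 7 or 8 under pseudocounts of 0.5 and 5, a filter at a mean CPM of 1, TMM, upper-quartile and nuclear protein-coding scaling and limma-voom. It was 1 with a robust prior variance, 1 in the authors' deposited DESeq2 results, and 0 without a mean-variance trend and with each gene's own variance, 2 fits that called only 5 and 13 genes in the whole table. Leaving out 1 library gave 3 to 8. The replicate numbers share only a number: the correlations of same-numbered deviations were -0.09, 0.01 and -0.04 over 11878 genes. With the replicate block 7 mRNAs were called, the mitochondrial share differed by -0.166 percentage points (exact sign-flip p = 0.5) and the mt-Nd6 log2 ratio by -0.21 (exact p = 0.25, the smallest possible), as without it.

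The 8 nuclear genes called became 5 with the replicate block, 4 in the authors' results, 0 without a trend and 0 with each gene's own variance, and 2 to 9 with 1 library left out, the lowest without control replicate 3; the count was 8 under the robust prior. The cause was not tested. Slirp was called without any 1 library. The difference in mitochondrial share was -0.224 to -0.0946 with 1 library left out, and -0.219, -0.20 and -0.166 over nuclear protein-coding reads, without Gm42418 and for the 8 distinct mRNAs. Signs turned for mt-Nd4l without control replicate 3 (0.0167) or food-restricted replicate 1 (0.0176; range with 1 library left out -0.82 to 0.0176), for Polrmt with voom (0.0469), in the authors' results (0.0067) and without control replicate 2 (0.0238) or 3 (0.0176) or food-restricted replicate 1 (0.112; range -0.11 to 0.112), for Twnk without control replicate 3 (range -0.10 to 0.0205) and for Nrf1 without food-restricted replicate 3 (-0.0013; range -0.0013 to 0.102). None of these was called either way.

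Planned edgeR and DESeq2 refits were not run, because the count columns could not be declared as counts. Planned rRNA, tRNA and mt-Rnr2 to mt-Rnr1 results have no value, since those rows carry no count. Few reads limit precision for the 5 shared mRNAs, with at most 311 reads per library, and the cause of these low counts was not tested.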
